A study of Mus musculus with 40 samples.

Results

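B4, RSINE1 and ID elements are short interspersed elements (SINEs) of rodent genomes, and 124227 annotated copies of them were measured one by one in cells of a serially transplanted mouse melanoma. They were taken from a table of 835636 repeat copies by repeat name, keeping each copy whose name begins with B4, RSINE1 or ID, which gave 7 names: B4, B4A, ID_B1, RSINE1, ID, ID2 and ID4. No measured value entered this choice. The table also held 174267 copies of the B1 family and 133861 of the B2 family, which are not described here.

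Sequencing was of poly(A) RNA of YUMM1.7 and of cells grown out of tumours that it formed over successive transplants into mice. YUMM1.7 is a cell line from a melanoma of a C57BL/6 mouse with activated Braf and without Cdkn2a, and every group carries these lesions. The parental YUMM1.7 cells, labelled with no treatment, gave 3 libraries. They were followed by the passages F0 and F1 (4 libraries each), F2 and N2.1 (5 each), N2.2 and N2.3 (3 each), Balb/c-1 (4), Balb/c-2 (3) and CBA (3), and the 3 Balb/c-2 tumours have a further library each, labelled rep2. Each letter is a tumour of its passage, and their cells spent 1 to 3 passages in culture before RNA was taken. Balb/c and CBA are inbred mouse strains; the labels do not say what N2 stands for or how old the mice were. All YUMM1.7 libraries come from 1 line, and each passage occurs once, so a p-value here measures the spread between cultures or between tumours of a passage.

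SINEs are copied by the L1 retrotransposon machinery and encode no protein. B4, RSINE1 and ID elements have a head derived from a transfer RNA gene, and an intact head carries the internal promoter of RNA polymerase III, made of a box A and a box B. ID elements descend from Bc1, a small RNA gene known from neurons, and ID_B1 joins an ID head to a B1 body. Most copies no longer act as genes of their own and are transcribed by RNA polymerase II as a stretch of an intron or an untranslated region of the gene they landed in, which is how poly(A) RNA can hold them.

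The sequences of 1 copy of each name show what such a read comes from. They were read from GENCODE M21 transcripts (GRCm38). Each is printed on the strand of the host transcript, unless the opposite strand matched the patterns marked below better. In that case the reverse complement is printed, and the strand given is always the printed one. For each name it is the copy with the highest mean among those lying whole in a coding or noncoding exon, and Bc1 stands first for comparison; Bc1 is no member and had a mean signal of 81.1. The ID2 and ID copies, of 58 and 35 bases, held no marked pattern on either strand and stayed on the host strand. Their letters resemble the reverse complement of Bc1, so they are printed opposite to it. Capitals mark CTCAG, a stretch of box A, and the box B pattern GTTCGNNCC (N is any base), or a longer box B consensus with 1 base left free, on the printed strand.
Bc1 (chr7:144914470-144914637, plus strand): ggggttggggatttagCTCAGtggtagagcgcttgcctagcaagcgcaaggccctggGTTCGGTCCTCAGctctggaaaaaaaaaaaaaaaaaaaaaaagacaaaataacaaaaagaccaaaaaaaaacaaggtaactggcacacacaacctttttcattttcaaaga
ID4 in Zranb2 (chr3:157542464-157542538, plus strand): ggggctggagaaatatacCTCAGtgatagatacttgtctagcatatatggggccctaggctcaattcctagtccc
ID2 in Cenpa (chr5:30670367-30670424, plus strand): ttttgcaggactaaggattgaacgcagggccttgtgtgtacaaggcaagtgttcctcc
ID in Dnajc14 (chr10:128810181-128810215, plus strand): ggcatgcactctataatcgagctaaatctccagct
ID_B1 in Rsrp1 (chr4:134926162-134926283, plus strand): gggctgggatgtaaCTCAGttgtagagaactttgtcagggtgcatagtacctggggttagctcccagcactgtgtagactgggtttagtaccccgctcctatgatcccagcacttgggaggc
RSINE1 in 2900097C17Rik (chr2:156389295-156389443, minus strand): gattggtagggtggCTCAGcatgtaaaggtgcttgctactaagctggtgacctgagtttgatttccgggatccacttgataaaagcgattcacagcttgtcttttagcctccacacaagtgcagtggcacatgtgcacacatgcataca
B4A in A830082K12Rik (chr13:78234884-78235071, minus strand): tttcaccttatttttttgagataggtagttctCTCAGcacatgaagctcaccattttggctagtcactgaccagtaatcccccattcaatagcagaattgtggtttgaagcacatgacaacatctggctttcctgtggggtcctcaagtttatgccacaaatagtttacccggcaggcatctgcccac
B4 in Gm44250 (chr6:5219428-5219708, minus strand): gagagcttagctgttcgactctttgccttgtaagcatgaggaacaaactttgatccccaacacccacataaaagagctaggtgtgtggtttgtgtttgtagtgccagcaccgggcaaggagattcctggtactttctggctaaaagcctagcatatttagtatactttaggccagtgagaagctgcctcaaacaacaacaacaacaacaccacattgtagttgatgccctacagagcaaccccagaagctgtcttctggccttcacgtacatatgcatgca

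Over the 7314 B4, RSINE1 and ID copies whose sequence could be read whole from an exon, exact matches to GTTCGNNCC and to a longer box A stretch were rare. The shares are of the 6597 among them that are 56 to 272 bases long, set against 17957 other SINE copies and 8579 copies of other repeat classes of 56 to 272 bases. With both strands searched, GTTCGNNCC stood in 0.788%, against 0.195% of the other SINEs and 0.396% of the other classes. The longer box A stretch TAGCTCAGT, which Bc1 holds, was in 3.59%, against 0.423% and 1.19%; among ID4 copies it was in 11.5% and among ID2 copies in 13.5%. CTCAG alone was in 63.4%, against 64% and 40.2%, and the longer box B consensus in 9.35%, against 16.1% and 4%; these 2 patterns were chosen after sequences had been seen. The poly(A) signal AATAAA was in 7.03%, against 20.7% and 21.3%. The median GC content was 49.3%, against 48.3% and 42.9%. A match is a description of letters and not of a working promoter, and a missing GTTCGNNCC does not mean a missing box B.

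The 40 libraries held between 1280522 and 2976730 reads in repeat copies. The deposited values, called signal here, are whole reads divided by 1 factor per library, and 1 read was worth between 0.659 and 1.51 signal units. B4, RSINE1 and ID copies took between 12.6% and 14.2% of a library's signal (mean 13.3%). Marker genes of cell types were seen only through repeat copies in their exons, which 3 of 8 melanocyte markers held. Such copies in Mlana, Tyr and Mc1r summed to 0 to 2.76 signal units in a library. Those in the leukocyte genes Ptprc, Csf1r, Cd3e, Itgam and Adgre1 summed to 0 to 15.5, and those in the endothelial gene Pecam1 to 0 to 3.26. The copies in melanocyte genes were thus at or near 0 in every group, YUMM1.7 cells included. They do not measure the rest of those transcripts, and the melanoma label could not be checked by them. The copies in the 4 fibroblast genes Col1a1, Dcn, Pdgfra and Thy1 averaged between 305 (Balb/c-1) and 1195 (YUMM1.7) in sum. Only 1 of the 4 genes reached a mean of 5, so the sum is mostly of that gene. In such bulk RNA fewer cells of a type and less RNA per cell cannot be told apart.

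ID_B1 and RSINE1 supplied most of the signal. ID_B1, with 36518 copies, held 39.4% of the B4, RSINE1 and ID signal, RSINE1 (37780 copies) 24.1%, B4 (17454 copies) 13.2% and B4A (26226 copies) 12.5%. ID4, with only 4472 copies of a median 75 bases, held 9.47%, whereas ID2 (952 copies) held 1.06% and ID (825 copies) 0.309%. The 3 highest copies held 29.1% of the ID4 signal, 17.1% of the B4 signal and 3.57% of the signal of all 124227 copies. Only 478 copies had no read in any library, but 5050 (4.07%) reached the mean signal of 5 that was required for a test.

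Place in a gene went with level. Only 7.27% of the copies touched an annotated exon, yet these held 68.8% of the signal. Copies in 3′ UTRs were 2.3% of the copies and held 52.6% of the signal, a larger share than the 47.5% that 3′ UTR copies held over all repeats. Intronic copies were 71.8% of the copies and held 26% of the signal, against 64.2% and 21.7% over all repeats. Coding exons held 6.27% of the signal, against 10.2% over all repeats. B4A differed from the other names in that only 47.6% of its signal came from exon copies, while ID4 had 87.8% there. Of the 9033 copies that touched an exon, 7328 lay whole within it; for the rest, part of the annotated copy lies outside the exon.

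**Figure D1:**
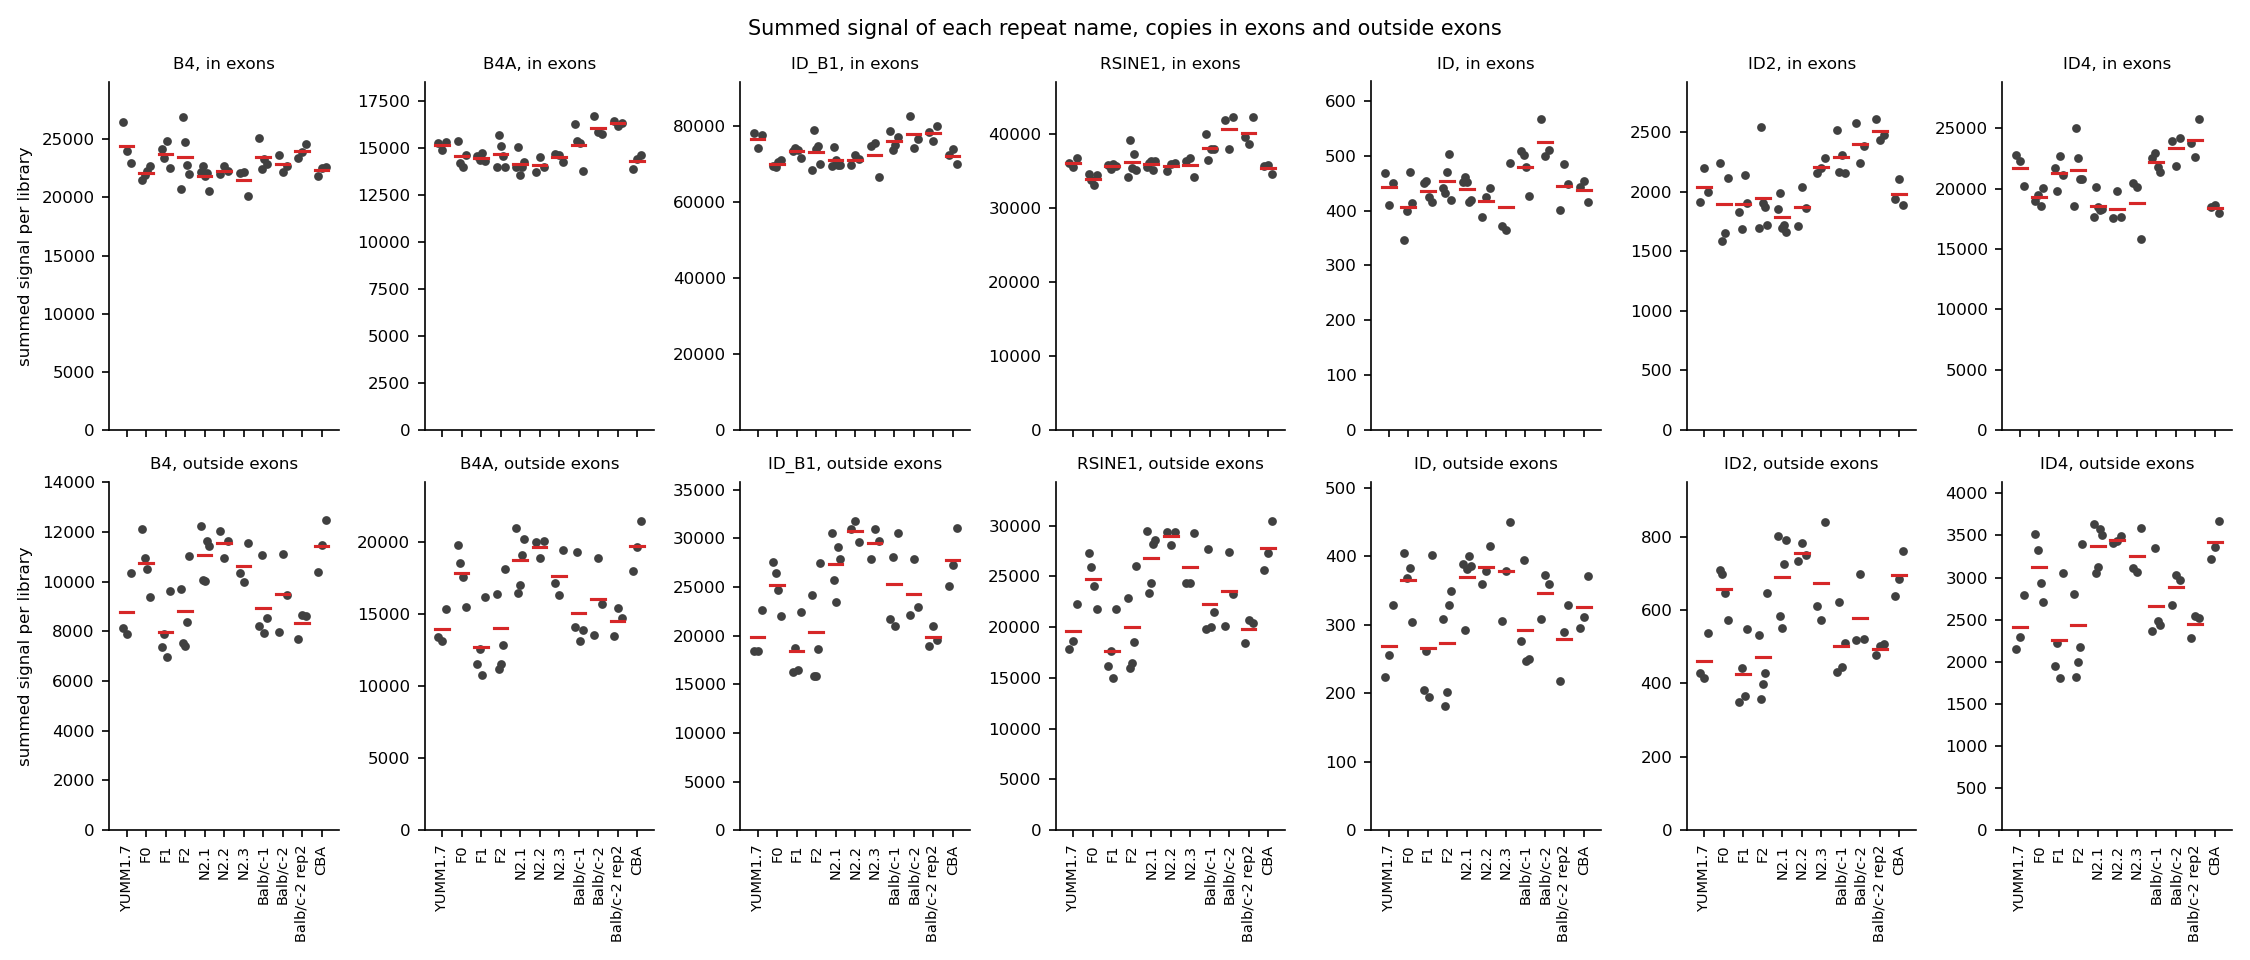
Summed signal of each repeat name per library (dots; red bars are group means) for copies in exons (upper row) and outside exons (lower row), in the order of passage and with every axis from 0. Outside exons all 7 names had higher means in N2.1 than in F2 and in CBA than in Balb/c-2 rep2, whereas the ID4 sum in exons was lower in N2.1 (18573 against 21546) and in CBA (18376 against 24033).

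The highest copies all touched exons. The highest of all was an ID4 copy in the 3′ UTR of Clic4, a chloride intracellular channel protein, with a mean of 3174 signal units over the 40 libraries (chr4:135216242-135216315). A B4 copy of which 24 of 53 bases lie in a coding exon of Ddb1, a subunit of a ubiquitin ligase that recognises damaged DNA, averaged 3011 (chr19:10626563-10626615). ID_B1 copies in the 3′ UTRs of Ehd2, an ATPase of caveolae, of Scpep1, a carboxypeptidase, and of Myadm averaged 2684, 2156 and 2011. The ID4 copy in the 5′ UTR of Glipr1 averaged 1944, the ID_B1 copy in the 3′ UTR of the adenylate kinase gene Ak1 averaged 1754 and the ID4 copy of Plp2 averaged 1726. The other 4 of the 12 highest were copies of Ctdsp2 (ID_B1, 1538), 9530068E07Rik (RSINE1, 1537), Pdia4 (B4, 1520.4, with 2 of 100 bases in the exon) and Ccng1 (RSINE1, 1313). The highest B4A copies were lower, at 567.5 (Aldh18a1), 556 (Smc3) and 543 (Lipa). ID2 was led by copies of Stom (467), Tnfrsf1b (317) and Arpp19 (132), and ID by copies of Ercc6l2 (108), Wdr90 (78.3) and Apobec1 (55.6). Tumour C of N2.3 was the lowest of the 40 libraries at 7 of the 12 highest copies.

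The Clic4 copy was read in every library and moved with the passages. It had 3601, 4063 and 2991 in YUMM1.7 cells, 3728, 2996, 2787 and 2973 in F0, 2991, 3154, 3638 and 2523 in F1, and 2556, 4342, 3927, 3018 and 3049 in F2. In N2.1 it had 2479, 2438, 1795, 2362 and 2243, in N2.2 2230.3, 2917 and 2149.8, and in N2.3 2429, 2512 and 1314. It had 4674, 4549.7, 4069 and 3151 in Balb/c-1 and 3783, 4049.8 and 3814 in Balb/c-2. The rep2 libraries had 4832, 4573 and 4476, and CBA 2562, 2659.97 and 2545. The N2 passages and CBA thus lay low and the Balb/c passages high, with no overlap between Balb/c-1 and N2.3 or between CBA and Balb/c-2 rep2.

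Differences between neighbouring passages were tested on log2(signal + 1) with limma, a linear model fitted to all 33215 copies with a mean of at least 5, and p-values were adjusted by Benjamini and Hochberg over all of them. A copy is called at an adjusted p under 0.05, and fold changes are log2 values with their standard error (SE), so a positive value means a higher signal in the group named first. The Clic4 copy was called in 3 of the 8 comparisons. It rose by 1.02 in Balb/c-1 against N2.3 (SE 0.18, adjusted p = 0.00135), fell by 0.84 in CBA against Balb/c-2 rep2 (SE 0.20, adjusted p = 0.00802) and fell by 0.56 in N2.1 against F2 (SE 0.15, adjusted p = 0.0132). Among the other 11 highest copies, Scpep1 fell by 0.63 in N2.1 (1523 ± 238 in N2.1 against 2409 ± 625.3 in F2) and by 1.05 in CBA (1614 ± 272 in CBA against 3370 ± 757 in Balb/c-2 rep2; means ± SD). Plp2, Ctdsp2 and 9530068E07Rik fell in N2.1 by 0.67, 0.58 and 0.43 (adjusted p = 0.00791, 0.0212 and 0.0126). The Ak1 copy rose by 0.96 in Balb/c-1 (2595 ± 351 in Balb/c-1 against 1572 ± 903 in N2.3, adjusted p = 0.0432).

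Among copies with a mean of at least 5, more of these elements changed in N2.1 against F2 than in any other of the 8 comparisons. Without that minimum other comparisons had more calls. This is also the only comparison with 5 libraries in each group, so a larger count of calls need not mean larger changes. Of the 5050 tested copies, 238 rose and 123 fell, together 7.15%, below the 9.7% called among all tested repeat copies (7.34% higher and 2.36% lower). Signal ranges of the 2 groups did not overlap for 127 of the 238 and 69 of the 123 (53.4% and 56.1%), against 56% of the 2439 higher and 58.5% of the 783 lower calls among all repeats. Without F2 B the number of calls was 196. The split depends on scaling: with TMM factors, which centre the bulk of copies between libraries, 124 rose and 210 fell, and the median change of all tested copies was 0.06 in place of 0.26. An unadjusted limma p under 0.05 was then reached by 1012 of the 5050, against 7488 of all 33215 tested repeats. The copies that rose lay in 199 genes and the copies that fell in 112.

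The direction of the calls in N2.1 differed between places in genes. Among intronic copies 115 rose and 16 fell of 2360 tested, as 1055 rose and 83 fell of 14031 over all repeats. Among 3′ UTR copies 74 rose and 66 fell of 1370, against 675 and 360 of 8512 over all repeats. Of the 85 in coding exons 0 rose and 6 fell, against 100 and 106 of 1769. Median changes were 0.36 in introns and 0.04 in 3′ UTRs, against 0.43 and 0.11 over all repeats. By name, B4A had 45 higher and 18 lower, RSINE1 59 and 21, ID_B1 88 and 47, B4 26 and 23, and ID4 18 and 12, which at 12.9% was the name with the largest share called. The share of a library's repeat signal that lay in introns was itself higher in N2.1, 24.8% ± 2.28 against 18.9% ± 4.32 in F2 (SD, n = 5 each), with ranges of 21.7% to 26.7% and 14.3% to 24.4%. With this intron share as a covariate 62 copies rose and 53 fell. What moves that share was not tested.

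**Figure D2:**
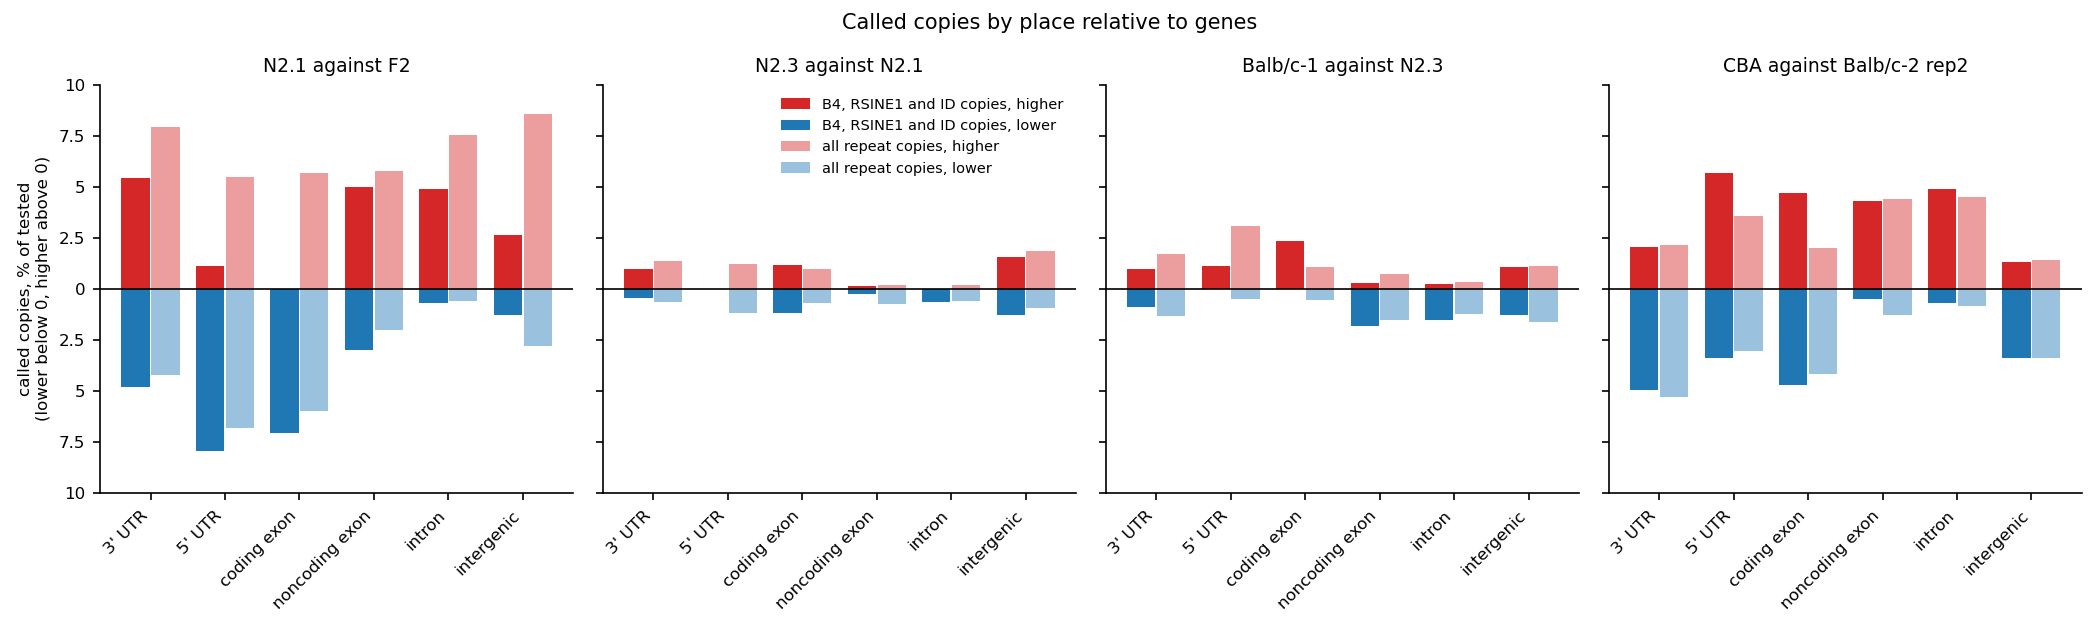
Called copies as a percentage of tested copies in each place relative to genes, higher above 0 and lower below, for B4, RSINE1 and ID copies (dark) and all repeat copies (pale) in the 4 comparisons with most calls. In N2.1 against F2 and in CBA against Balb/c-2 rep2 intronic copies were called mainly higher (115 higher and 16 lower in each), as all intronic repeats were.

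Of the 5 strongest rises in N2.1, 4 were intronic. Named in each comparison are the 5 highest and 5 lowest changes among called copies whose groups do not overlap. The RSINE1 copy in an intron of Acta2, the smooth muscle actin gene, had 37.8, 4.09, 21.8, 17.7 and 20.3 in N2.1 against 0, 2.19, 0, 0 and 1.82 in F2 (chr19:34245810-34245969). It rose by 3.52 (SE 0.57, adjusted p = 4.78e-05), although tumour B of N2.1 came near the F2 values. The ID_B1 copy in an intron of Cntnap2, a neuronal adhesion protein gene, had 24.4, 5.11, 8.31, 13.2 and 6.02 in N2.1, while no F2 library had a read (chr6:47186365-47186434). Set against a floor of 3 reads per library it was at least 3.86-fold higher in N2.1 (adjusted p = 1.28e-06). An ID_B1 copy in an intron of Luc7l2, a splicing factor gene, had 33.6, 12.3, 6.24, 21.2 and 20.3 in N2.1 against 0, 3.28, 0, 0.956 and 4.54 in F2 (chr6:38559567-38559708). It rose by 3.01 (SE 0.52, adjusted p = 0.000126), and all 3 called copies of Luc7l2 rose. The B4A copy in an intron of Oas1a, an interferon-induced oligoadenylate synthetase gene, had 53.7, 110.5, 24.9, 34.5 and 61.7 in N2.1 against 9.11, 0, 12.6, 20.1 and 0 in F2 (chr5:120899645-120899943), a rise of 3.38 (SE 0.74, adjusted p = 0.00211).

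The strongest falls in N2.1 were mostly in 3′ UTRs. The B4 copy in the 3′ UTR of Itih5, a hyaluronan-binding matrix protein gene, had 4.2, 0, 0, 1.77 and 0 in N2.1 against 15.5, 148, 129.6, 45.9 and 29.99 in F2 (chr2:10255360-10255622). It fell by 4.99 (SE 0.86, adjusted p = 0.0001), and the F2 tumours themselves spread widely. The B4 copy in the 3′ UTR of Nrk, a protein kinase gene, had 1.68, 0, 0, 0 and 0 in N2.1 against 18.2, 47, 25.3, 32.5 and 21.8 in F2 (chrX:139009927-139010145). That copy fell by 4.54 (SE 0.47, adjusted p = 8.57e-09). The RSINE1 copy in the 3′ UTR of Sox7, a transcription factor gene, had 4.2, 1.02, 0, 2.65 and 6.02 in N2.1 against 31, 91.8, 62.2, 35.4 and 47.3 in F2 (chr14:63949288-63949471). It fell by 4.04 (SE 0.46, adjusted p = 7.84e-08). The ID4 copy in the 3′ UTR of Fam213a, which encodes a peroxiredoxin-like protein, had 5.04, 2.05, 8.31, 2.65 and 3.76 in N2.1 against 45.6, 186, 85.4, 63.1 and 43.6 in F2 (chr14:40994055-40994112). This one fell by 3.89 (SE 0.62, adjusted p = 3.75e-05). All 4 were lower in every N2.1 tumour than in any F2 tumour, as the rule for naming requires. The ID_B1 copy in an intron of the imprinted gene Rasgrf1 had 10.1, 3.07, 1.04, 1.77 and 0.752 in N2.1 against 62, 83.1, 78, 32.5 and 194 in F2 (chr9:90019290-90019486), and it fell by 4.51 (adjusted p = 6.03e-07). All 9 copies kept their call under every alternative run, including each omission of 1 library.

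**Figure D3:**
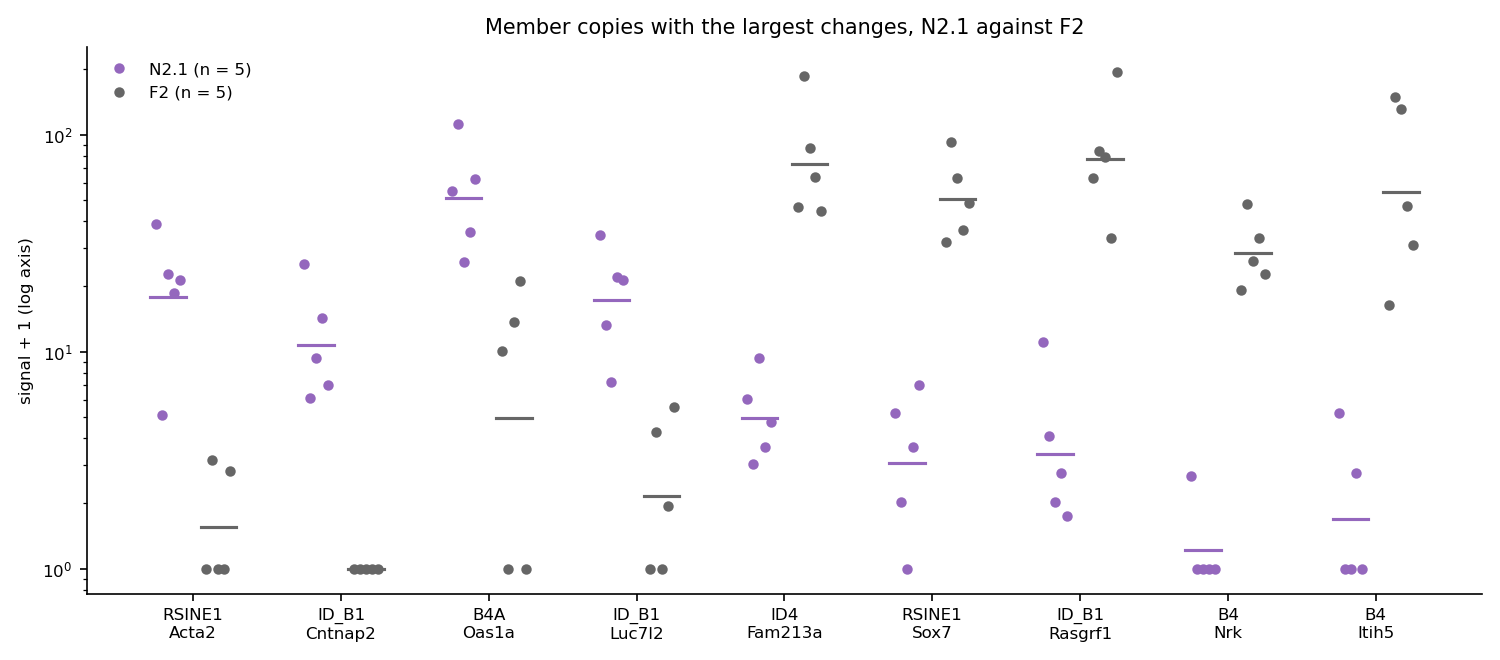
Signal + 1 on a log axis of 9 copies with the largest changes in N2.1 against F2, 1 dot per tumour, with bars at the mean of the logs. Dots of the 2 groups do not overlap because only such copies were named, and the Cntnap2 copy is at 0 signal in all 5 F2 tumours.

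Several genes held 3 or more called copies. In N2.1 the called copies of Tpm4, a tropomyosin gene (3 copies, up to 2.41), Klhl26 (4 copies, up to 1.83), A930004J17Rik (4 copies, 1.43 to 1.92) and A930015D03Rik (3 copies, 1.29 to 2.19) all rose. The 3 called copies of Gxylt2, a xylosyltransferase gene, all fell, by 2.54 to 3.53. Copies of 1 gene are not independent of each other. Of the 300 called copies with another tested repeat of a different kind in the same gene, 264 (88%) had the sign of the median of those other repeats, whose median change in that direction was 0.68. No such share was taken over all called repeats or over copies not called. Most calls over all repeats were also higher in N2.1 (2439 higher and 783 lower), so signs can match without a link through the gene.

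Summed over all copies of a name, few of the 7 sums were called in N2.1 against F2. RSINE1 had 62716 ± 2519 in N2.1 against 56219 ± 3366 in F2, a rise of 0.16 (SE 0.04, adjusted p = 0.0024). B4A had 32959 ± 1883 in N2.1 against 28715 ± 2455 in F2, a rise of 0.20 (SE 0.06, adjusted p = 0.0078). These 2 of 7 compare with 39.2% of the 1004 tested repeat names called, 35.9% higher and 3.39% lower. The direction does not hold under TMM factors, where 0 of the 7 sums were called higher and 5 lower, among them RSINE1 at -0.11 (adjusted p = 0.019), with B4A at -0.07. The median change under TMM factors was -0.196 for the 7 sums and 0.029 over all 1004 names. An unadjusted limma p under 0.05 was reached there by 5 of the 7 and by 353 of the 1004. With the intron share as a covariate RSINE1 changed by 0.04 (adjusted p = 0.368) and B4A by 0.01 (adjusted p = 0.919), and neither was called.

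Outside exons all 7 sums rose in N2.1, by 0.34 (B4) to 0.57 (ID2), with 49.5% of the 915 names tested there called higher and a median of 0.49 over all of them. ID_B1 had 27371 ± 2807 in N2.1 against 20398 ± 5211 in F2, and B4 had 11064 ± 993 in N2.1 against 8797 ± 1553 in F2. Tumours of the 2 groups overlapped for each of the 7. Leaving out 1 library kept 5 to 7 of the 7 calls; B4 was not called without F2 B (adjusted p = 0.0635), F2 C (0.0689) or N2.1 A (0.0553), and ID without F2 B (0.127), F2 C (0.101), N2.1 A (0.0537), N2.1 D (0.0535) or N2.1 E (0.0507). With TMM factors 5 of the 7 were called; B4 changed by 0.13 (adjusted p = 0.206) and ID by 0.26 (adjusted p = 0.167). The median change over all 915 names was then 0.285. An unadjusted limma p under 0.05 was reached by 5 of the 7 and by 378 of the 915. With the intron share as a covariate 0 were called, with changes of -0.07 to 0.07; that share is measured on the same repeat signal and is nearly the quantity tested here, so its removal takes the change away by construction. In exons only ID4 was called, with 18573 ± 938 in N2.1 against 21546 ± 2403 in F2, and it fell by 0.21 (adjusted p = 0.019), where 13.9% of 786 names were called higher and 5.6% lower. That call was lost without F2 B (adjusted p = 0.0915), F2 C (0.0546) or N2.1 A (0.0516). The ID4 sum in exons includes the copies of Clic4 (mean 2263 in N2.1 against 3378 in F2) and Plp2 (1397 against 2290). It was not run without them, so a change of ID4 copies in general cannot be read from it.

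**Figure D4:**
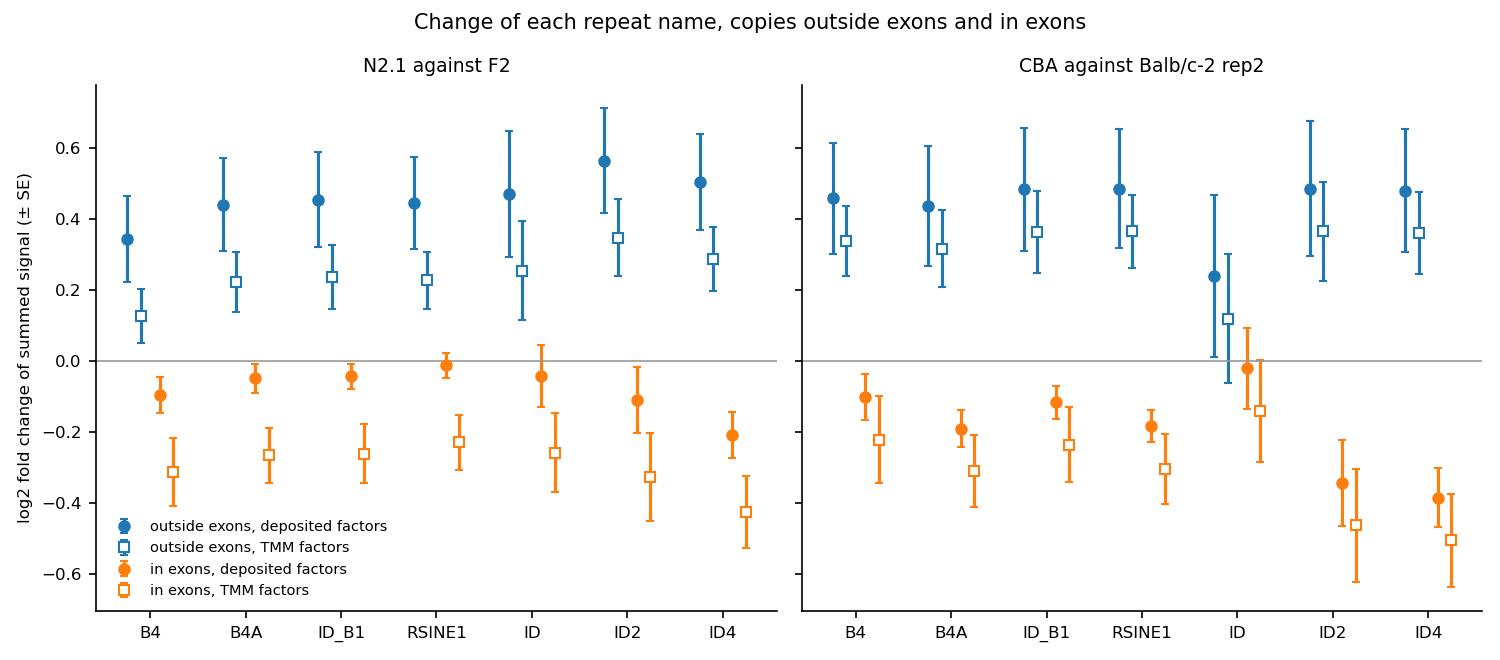
Log2 fold change (± SE) of the summed signal of each name outside exons (blue) and in exons (orange), with the deposited factors (filled circles) and with TMM factors (open squares). Sums outside exons lie above 0 and sums in exons below 0 in both comparisons and under both scalings; in CBA those outside exons run from 0.24 (ID) to 0.49 (RSINE1).

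CBA against Balb/c-2 rep2 gave the next largest number of calls at the same minimum. The repeat libraries of Balb/c-2 serve as the comparison here. Of 5050 copies 190 rose and 108 fell, 5.9% in all, near the 5.93% among all tested repeats (3.39% higher and 2.54% lower). The groups did not overlap for 178 and 106 of them (93.7% and 98.1%), against 95.5% of the 1127 higher and 98.6% of the 843 lower calls among all repeats. TMM factors gave 156 higher and 124 lower, with a median change of all tested copies of 0.10 in place of 0.20. An unadjusted limma p under 0.05 was then reached by 1063 of the 5050 and by 7092 of all 33215 tested repeats. Intronic copies rose in 115 cases and fell in 16, noncoding exon copies rose in 33 and fell in 4, and 3′ UTR copies rose in 28 and fell in 68. Over all repeats the counts were 629 and 119 of 14031 in introns, 211 and 62 of 4823 in noncoding exons and 182 and 451 of 8512 in 3′ UTRs. The intron share was 25.9% ± 1.38 in CBA against 18.4% ± 0.949 in Balb/c-2 rep2 (SD, n = 3 each), without overlap, and with it as a covariate 17 copies rose and 17 fell. Leaving out 1 library gave between 96 (without Balb/c-2 rep2 C) and 326 calls; the count was 159 without Balb/c-2 rep2 A, 130 without CBA A and 113 without CBA C.

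The 5 copies that rose most in CBA sat in introns. The ID_B1 copy of Troap, a spindle-associated protein gene, had 11.5, 19.6 and 18.8 in CBA against 0, 2.21 and 0 in Balb/c-2 rep2 (chr15:99077080-99077202), a rise of 3.54 (adjusted p = 0.00437). The RSINE1 copy of Chaf1a, a subunit of the chromatin assembly factor, had 20.9, 21.7 and 19.9 in CBA against 0, 6.63 and 0 in Balb/c-2 rep2 (chr17:56060680-56060794), a rise of 3.47 (adjusted p = 0.00168). The RSINE1 copy of Scd2, a stearoyl-CoA desaturase gene, had 28.2, 27.2 and 32.8 in CBA against 0, 6.63 and 1.51 in Balb/c-2 rep2 (chr19:44299142-44299278), a rise of 3.5 (adjusted p = 0.0028). All 3 were higher in each CBA tumour, as the rule for naming requires. In Balb/c-2 rep2 they were highest in tumour B, whose library name gives another run than the other rep2 and CBA libraries. The B4 copy of Nrm, which encodes a protein of the nuclear envelope, had 6.28, 15.2 and 10.6 in CBA and no read in Balb/c-2 rep2 (chr17:35863075-35863218), at least 2.70-fold higher against a floor of 3 reads per library (adjusted p = 0.0114). The B4 copy of the quinone reductase gene Nqo1 had 17.8, 18.5 and 15.2 in CBA against 1.33, 1.1 and 0 in Balb/c-2 rep2 (chr8:107390501-107390691), a rise of 3.41 (adjusted p = 0.0104, and 0.0705 without Balb/c-2 rep2 C). With the intron share as a covariate the call ended for each of these 5. The rise was then 2.48 for Chaf1a (SE 0.74, adjusted p = 0.0911), 2.53 for Scd2 (SE 0.80, 0.116), 3.11 for Nqo1 (SE 0.98, 0.113), 2.25 for Troap (SE 0.83, 0.196) and 1.99 for Nrm (SE 0.92, 0.327). All 3 called copies of Tk1, thymidine kinase, rose (2.16 to 2.79), as did the 3 of the DNA helicase gene Pif1 (1.34 to 3.01), while of those of Trip4 2 rose and 1 fell.

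Copies in introns of Zbp1, Oas2 and Angptl6 were among the 5 strongest falls in CBA. The ID_B1 copy of Zbp1, a sensor of nucleic acids, had 0, 1.09 and 0 in CBA against 181, 89.5 and 16.6 in Balb/c-2 rep2 (chr2:173207281-173207474), and it fell by 5.70 (adjusted p = 0.000879). All 4 called B4, RSINE1 and ID copies of Oas2 fell, by 4.69 to 2.93; the B4A copy at chr5:120732706-120732910 had 0, 5.43 and 0 in CBA against 55.9, 53.1 and 34.8 in Balb/c-2 rep2 (adjusted p = 0.00454). The intronic B4A copy of Angptl6, an angiopoietin-like protein gene, had 2.09, 6.52 and 2.35 in CBA against 70.5, 90.6 and 107 in Balb/c-2 rep2 (chr9:20876744-20876940), and it fell by 4.39 (adjusted p = 0.00633). Each CBA tumour was below each Balb/c-2 rep2 library for these copies, as the rule for naming requires. Repeat copies in exons of leukocyte marker genes summed to 3.97 ± 1.48 in CBA and 5.60 ± 8.58 in Balb/c-2 rep2 (SD, n = 3 each). Those in fibroblast markers, mostly of 1 gene, summed to 314 ± 52.7 in CBA and 563 ± 14.6 in Balb/c-2 rep2. The part of either in these changes was not tested. With the intron share as a covariate the change was -3.97 for that Oas2 copy (SE 1.19, adjusted p = 0.0954) and -4.56 for Angptl6 (SE 1.18 in place of 0.99, adjusted p = 0.051), and neither was called. Zbp1 was still called, at -4.50 (adjusted p = 0.0479).

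ID4 was the only name whose whole sum was called in CBA. It had 21793 ± 213 in CBA against 26481 ± 1608 in Balb/c-2 rep2, without overlap, and it fell by 0.28 (SE 0.07, adjusted p = 0.0054), where 14% of names were called, 6.87% higher and 7.17% lower. Without the Clic4 copy the fall was 0.18 (adjusted p = 0.048) and without the 3 highest ID4 copies 0.18 (adjusted p = 0.043), and without Balb/c-2 rep2 C it was 0.23 (adjusted p = 0.0525). In exons ID4 fell by 0.39, ID2 by 0.34, B4A by 0.19 and RSINE1 by 0.18 (adjusted p = 0.0012, 0.039, 0.0083 and 0.0041), with 3.82% of 786 names called higher and 17% lower. These 4 did not overlap between the groups, and the ID4 sum in exons was not run without the Clic4 copy. With the intron share as a covariate none of the 4 was called, with changes of -0.20 for ID4 (adjusted p = 0.0978), -0.13 for ID2 (0.579), -0.12 for B4A (0.155) and -0.09 for RSINE1 (0.169), nor was the whole ID4 sum (-0.18, adjusted p = 0.129). ID2 kept its call in 1 of the 6 omissions of a library (adjusted p up to 0.127). Outside exons the 7 sums changed by 0.24 (ID) to 0.49 (RSINE1) and 0 were called by limma, where 7.32% of 915 names were called. An unadjusted limma p under 0.05 was reached by 6 of the 7, against 314 of the 915 names. TMM factors gave 4 higher calls, with an unadjusted limma p under 0.05 for 6 of the 7 and for 273 of the 915 names. These sums were not run in edgeR or DESeq2.

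Balb/c-1 against N2.3 changed 95 copies, 28 higher and 67 lower, or 1.88% against 2.2% of all tested repeats (0.912% higher and 1.29% lower). Intronic copies made up 36 of the falls and 6 of the rises, of 2360 tested, against 174 and 46 of 14031 over all repeats. With TMM factors the counts were 41 higher and 45 lower, and the median change of all tested copies was -0.03 in place of -0.17. An unadjusted limma p under 0.05 was then reached by 802 of 5050 copies and by 5586 of all 33215 tested repeats. The intron share averaged 20.4% ± 2.86 in Balb/c-1 (n = 4) and 23.8% ± 2.44 in N2.3 (SD, n = 3), and as a covariate it left 16 higher and 22 lower. Without single libraries the number of calls was 34 (N2.3 C), 55 (N2.3 A), 62 (N2.3 B), 43 (Balb/c-1 A) or 48 (Balb/c-1 C), lowest without N2.3 C.

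The named falls in Balb/c-1 included a 3′ UTR copy and a copy partly in a noncoding exon. The B4 copy in the 3′ UTR of Casc4 had 12, 4.41, 11.5 and 1.04 in Balb/c-1 against 44.1, 93.9 and 330.1 in N2.3 (chr2:121935041-121935201), and it fell by 4.11 (adjusted p = 3.79e-05). The ID_B1 copy partly in a noncoding exon of the matrix protein gene Tinagl1 had 0, 0, 2.88 and 0 in Balb/c-1 against 16.9, 21.3 and 35.6 in N2.3 (chr4:130166527-130166655), and it fell by 4.12 (adjusted p = 0.00167). By the rule for naming, both copies were lower in each Balb/c-1 tumour than in any N2.3 tumour. Both kept their call whichever library was left out.

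Of the 5 strongest rises in Balb/c-1, 4 were B4A or B4 copies. The B4A copy in the 3′ UTR of Acpp, prostatic acid phosphatase, had 67.3, 50.3, 14.4 and 66.6 in Balb/c-1 against 0, 0.789 and 0 in N2.3 (chr9:104289587-104289847), a rise of 5.17 (SE 0.83, adjusted p = 0.000494). The B4 copy between genes nearest to Zmat3 had 2.76, 5.3, 21.1 and 11.4 in Balb/c-1 against 0, 0.789 and 0 in N2.3 (chr3:32367756-32368021), a rise of 2.89 (adjusted p = 0.00461). Both calls held without any 1 library. The B4A copy in the 3′ UTR of the interferon-inducible gene Ifi213 (78.3, 30.9, 60.5 and 5.2 in Balb/c-1 against 0, 3.15 and 0.757 in N2.3, adjusted p = 0.0248) and the Zbp1 copy (109.6, 21.2, 27.9 and 9.37 in Balb/c-1 against 1.7, 7.89 and 0 in N2.3, adjusted p = 0.047) lost theirs in 4 and 5 of 7 omissions. An intergenic B4A copy nearest to Gm49436 had 82, 19.4, 24 and 9.37 in Balb/c-1 against 2.54, 0 and 0.757 in N2.3 (adjusted p = 0.0196), and lost its call in 3 of 7 omissions. None of the 7 whole sums was called, where 3.19% of names were called, 1.49% higher and 1.69% lower. An unadjusted limma p under 0.05 was reached by 1 of the 7 and by 194 of all 1004 names. In exons the ID4 sum rose by 0.25 (22164 ± 706 in Balb/c-1 against 18803 ± 2581 in N2.3, adjusted p = 0.034); without N2.3 C it changed by 0.13 (adjusted p = 0.365), and the call was also lost without Balb/c-1 A, B or C. That sum includes the Clic4 copy, with a mean of 4111 in Balb/c-1 against 2085 in N2.3, and was not run without it.

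N2.3 against N2.1 changed 50 copies, 21 higher and 29 lower, 0.99% against 1.4% of all tested repeats (0.726% higher and 0.677% lower). The 15 intronic calls were all lower, where over all repeats 83 intronic copies were lower and 26 higher. In 3′ UTRs 13 copies rose and 6 fell of 1370, against 117 and 53 of 8512 over all repeats. The ID_B1 copy in the 3′ UTR of Gprc5c, an orphan receptor gene, had 29.7, 18.9 and 41.6 in N2.3 against 0, 3.07, 0, 0 and 0 in N2.1 (chr11:114872140-114872193), a rise of 4.48 (adjusted p = 0.000534). The ID_B1 copy in the 3′ UTR of the amino acid transporter gene Slc43a2 had 10.2, 14.2 and 24.2 in N2.3 against 0, 0, 0, 0 and 0.752 in N2.1 (chr11:75574959-75575143), a rise of 3.86 (adjusted p = 0.00706). The B4A copy in the 3′ UTR of Mlph, melanophilin, which carries pigment granules to myosin, had 17.8, 26 and 13.6 in N2.3 against 4.2, 1.02, 0, 3.53 and 2.26 in N2.1 (chr1:90950901-90951100), a rise of 2.83 (adjusted p = 0.00564). These 3 were higher in each N2.3 tumour, as the rule for naming requires. Both other named rises depended on single libraries. The copy of Il12rb1 had 24.6, 52.1 and 3.03 in N2.3 against 1.68, 2.05, 1.04, 0.883 and 3.01 in N2.1 (adjusted p = 0.0171, and 0.225 without N2.3 B or 0.0989 without N2.3 A). An intergenic RSINE1 copy on chromosome 2 lost its call in 6 of 8 omissions.

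The named falls in N2.3 were of copies with under 30 signal units in every library of both groups. The B4A copy in an intron of Mbnl1, a splicing regulator gene, had no read in N2.3 and 4.2, 4.09, 9.35, 7.07 and 9.03 in N2.1 (chr3:60499587-60499845), at least 2.82-fold lower against the floor (adjusted p = 0.00706). The intronic B4A copy of Zmat3, an RNA-binding protein gene, had 0, 0.789 and 0 in N2.3 against 15.1, 7.16, 6.24, 7.07 and 9.03 in N2.1 (chr3:32342849-32343069), and it fell by 2.97 (adjusted p = 0.00832). Nmnat2 (ID_B1, -2.68), Rdh11 (B4A, -2.66) and a B4 copy between genes on chromosome 1 (-2.79) were also called, and each lost its call in 2 to 6 of the 8 omissions of a library. Omissions moved the number of calls to between 17 (without N2.1 E) and 88 (without N2.1 B); it was 20 without N2.1 C, 27 without N2.1 A, 33 without N2.1 D and 21 without N2.3 A or N2.3 B. None of the 7 sums was called over all copies (0.498% of names were called, 0.299% higher and 0.199% lower). An unadjusted limma p under 0.05 was reached by 1 of the 7 and by 134 of all 1004 names.

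The Balb/c-2 rep2 libraries come from the same tumours as Balb/c-2, and the labels do not say whether the culture or only the library was repeated. Library names set the rep2 and CBA libraries apart from all others (they alone carry run names), so run and repeat cannot be told apart here. CBA against Balb/c-2 rep2 lies within that set, though the run name of Balb/c-2 rep2 B differs from that of the rest. Of 5050 copies 10 fell and 0 rose, 0.198% against 0.232% of all tested repeats (0.0331% higher and 0.199% lower), and 8 of the 10 lay in 3′ UTRs, as did 55 of the 66 lower calls over all repeats. The ID4 copy in the 3′ UTR of Smug1, a DNA glycosylase gene, had 6.65, 2.21 and 0 in Balb/c-2 rep2 against 23, 16.8 and 20.6 in Balb/c-2 (chr15:103153353-103153441), and it fell by 2.85 (adjusted p = 0.0232). A B4A copy of 30 bases in the 3′ UTR of Prkci, an atypical protein kinase C gene, had 18.6, 21 and 18.2 in Balb/c-2 rep2 against 106, 71.7 and 57.3 in Balb/c-2 (chr3:31052722-31052751), and it fell by 1.93 (adjusted p = 0.0255). The other 3 named were an ID4 copy of Nsrp1 (-2.16), an ID_B1 copy near Utp11 (-2.79) and the ID_B1 copy of the autophagy gene Map1lc3b (-2.80), and all 5 lost their call in 4 to 6 of the 6 omissions. The Map1lc3b copy, 214 bases in a noncoding exon, holds CTCAG and the longer box B consensus with 1 base left free. It is printed as a named copy, and the CTCAG near its end is marked by its letters only.
ID_B1 in Map1lc3b (chr8:121595358-121595571, plus strand): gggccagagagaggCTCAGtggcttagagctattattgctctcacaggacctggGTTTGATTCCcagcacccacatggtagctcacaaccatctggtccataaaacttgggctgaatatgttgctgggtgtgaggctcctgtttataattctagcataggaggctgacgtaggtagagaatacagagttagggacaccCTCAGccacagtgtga
With tumour letters as a replicate block, 21 copies were called in place of 10, 6 higher and 15 lower. Of the 5 named copies Prkci was then called (adjusted p = 0.0217), whereas Smug1 (0.141), Map1lc3b (0.121), Nsrp1 (0.102) and the copy near Utp11 (0.0783) were not. The number of calls was 0 without Balb/c-2 A and 2 without Balb/c-2 C or Balb/c-2 rep2 C. None of the 7 whole sums was called without the block, where 2.99% of names were called, 0.398% higher and 2.59% lower. An unadjusted limma p under 0.05 was then reached by 1 of the 7 and by 173 of all 1004 names. With the block RSINE1 (-0.10, adjusted p = 0.0085) and ID (-0.28, adjusted p = 0.019) were called.

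The remaining comparisons gave almost no calls. In F2 against F0 a single copy was called, the B4A copy in the 3′ UTR of Shc1, an adaptor of receptor kinases, with 411, 568.5, 400.5, 613 and 385 in F2 against 355, 224, 183 and 255 in F0 (chr3:89429053-89429091). It rose by 0.92 (SE 0.17, adjusted p = 0.0387), lost the call in 6 of 9 omissions (adjusted p = 0.233 without F0 C), and stands for 0.0198% of copies against 0.0391% of all repeats (0.0331% higher and 0.00602% lower). None of the 7 whole sums was called in F2 by limma, with 0.0996% of names called higher and 0.0996% lower. An unadjusted limma p under 0.05 was reached by 1 of the 7 and by 119 of all 1004 names. In F0 against YUMM1.7 limma called 0 of 5050 copies (0% of all repeats), and edgeR and DESeq2 also called 0. An unadjusted limma p under 0.05 was reached by 441 of them, against 2854 of all 33215 tested repeats. In Balb/c-2 against Balb/c-1 limma called 0 (0% of all repeats), edgeR called 0 and DESeq2 5. There 542 copies had an unadjusted limma p under 0.05, against 3519 of all 33215 tested repeats. Summed outside exons, the names changed by 0.29 to 0.52 in F0 against YUMM1.7 and by -0.50 to -0.30 in F2 against F0. By limma 0 of 7 were called in either, as over all 915 names, and edgeR and DESeq2 were not run. An unadjusted limma p under 0.05 was reached by 6 and 7 of the 7, against 168 and 235 of the 915 names. All 7 were called lower in F2 when F2 E was left out, which rests on 1 omission and is given without the share over all names.

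Followed through the series, single copies showed different courses. The Cntnap2 copy had no read in any of the 16 libraries of YUMM1.7, F0, F1 and F2, which at 3 reads per library allows a small signal, and averaged 11.4 ± 7.89 in N2.1, 13.3 ± 1.83 in N2.2, 12.4 ± 5.84 in N2.3, 4.99 ± 6.09 in Balb/c-1. Its averages were 11.5 ± 3.23 for Balb/c-2, 5.69 ± 1.79 for the rep2 libraries and 15.1 ± 4.55 for CBA. The Rasgrf1 copy ran the other way, with 125 ± 26.7 in YUMM1.7, 204 ± 139 in F0, 23.5 ± 24.0 in F1 and 89.8 ± 61.2 in F2, then 3.34 ± 3.87 in N2.1, 0.348 ± 0.603 in N2.2 and no read later. The Casc4 copy averaged 456 ± 151 (YUMM1.7), 333 ± 127 (F0), 285 ± 79.0 (F1), 264 ± 33.1 (F2), 107 ± 46.7 (N2.1), 79.2 ± 46.9 (N2.2), 156 ± 153 (N2.3), 7.24 ± 5.39 in Balb/c-1, and then 6.68 ± 4.72 (Balb/c-2), 5.89 ± 4.16 (rep2) and 2.48 ± 2.2 (CBA). Neighbouring groups among YUMM1.7, F0, F1 and F2 overlapped for Casc4. A further B4A copy of Oas2 (chr5:120737450-120737698) averaged 1.33 ± 1.55 in YUMM1.7, 8.84 ± 13.8 in F2, 32.0 ± 28.5 (N2.1), 22.7 ± 12.7 (N2.2), 23.1 ± 9.54 (N2.3), 61.3 ± 47.4 in Balb/c-1, 93.3 ± 20.7 (Balb/c-2), 91.2 ± 9.73 (rep2) and 4.52 ± 3.92 (CBA). Its fall in CBA (-4.55, adjusted p = 0.0167) lost the call without Balb/c-2 rep2 A (adjusted p = 0.0527), Balb/c-2 rep2 C (0.0566) or CBA A (0.121).

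**Figure D5:**
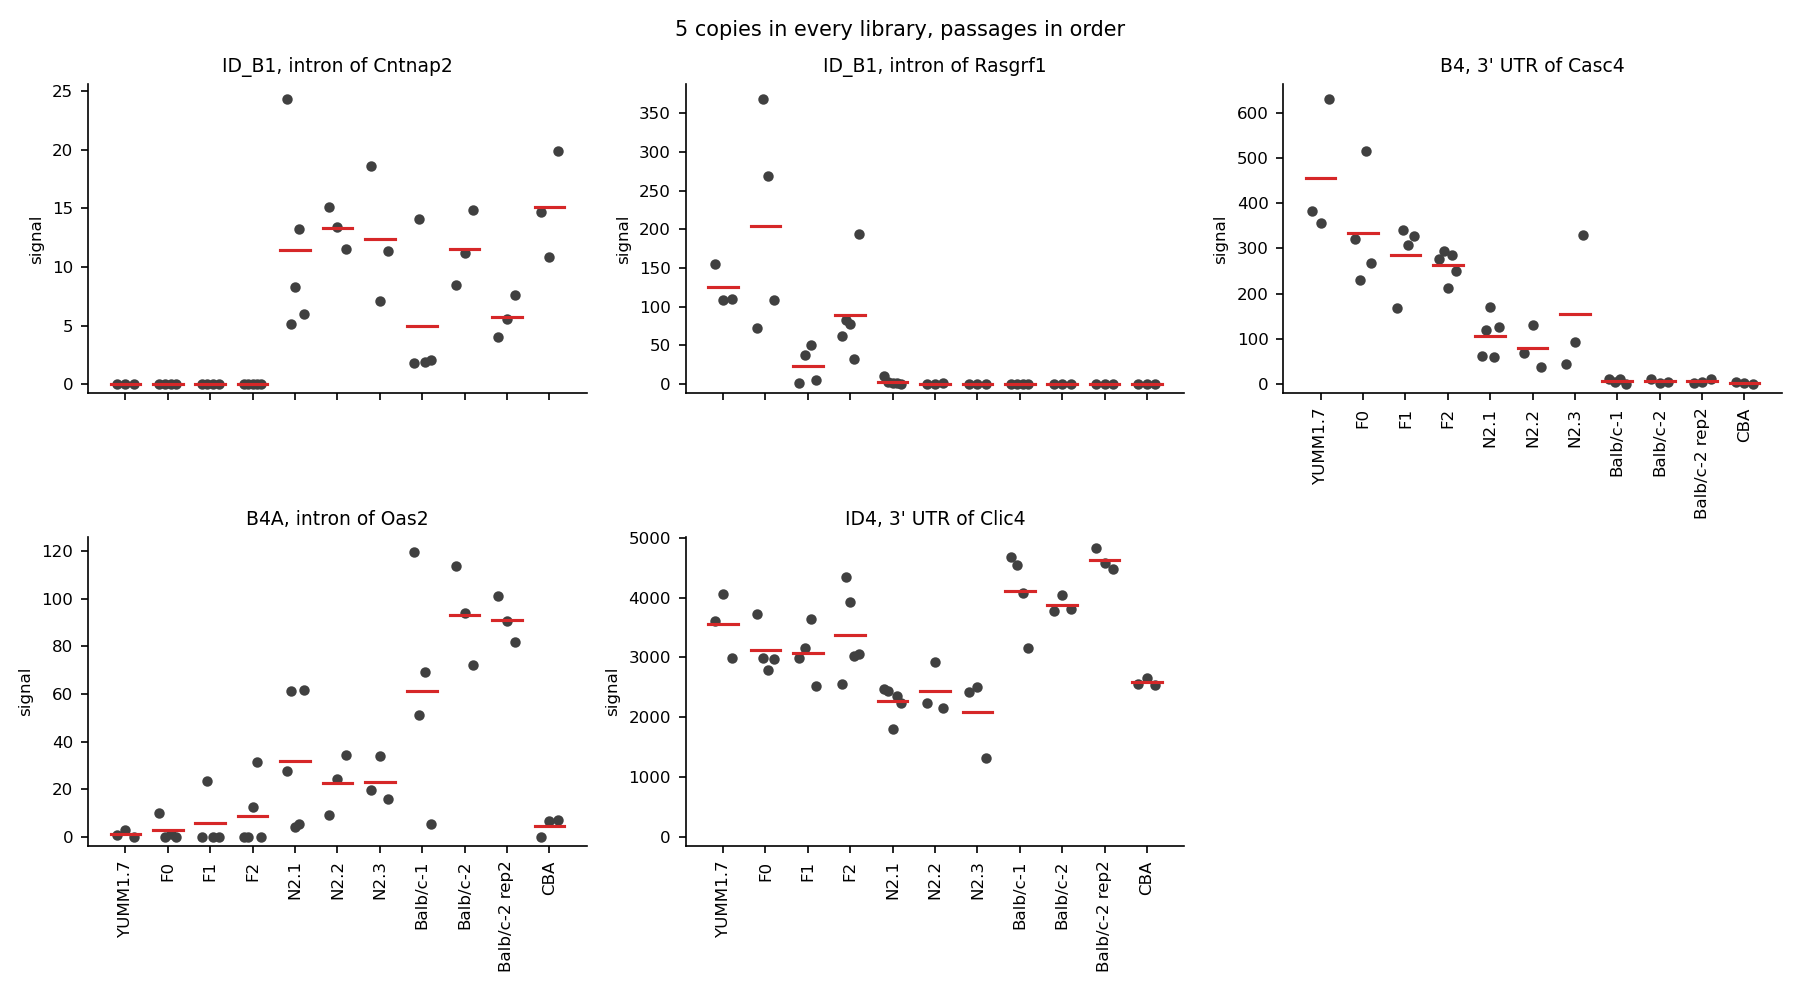
Signal of 5 copies in every library (dots; red bars are group means), with groups in the order of passage. The Cntnap2 copy is at 0 until N2.1, the Rasgrf1 copy at 0 from N2.3 on, Casc4 at 12.1 or less from Balb/c-1 on, and the Oas2 and Clic4 copies go up and down between passages.

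In the other comparisons most called copies had the sign of other repeats in their gene. The single called copy in F2 against F0 did not have the sign of the other repeats of its gene. Of called copies with another tested repeat in the same gene, 227 of 246 (92.3%) in CBA, 33 of 33 in N2.3, 64 of 73 (87.7%) in Balb/c-1 and 5 of 8 in Balb/c-2 rep2 had the sign of that repeat's median change. These shares too have no baseline over all called repeats or over copies not called. The median size of the change was 2.00 for the called copies and 1.02 for the other repeats in CBA, where being called selects large changes. Whether a copy has a transcript of its own was not tested.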

How the data were processed

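The deposited table gives, per the file headers, 1 value per repeat copy and library with mm10 coordinates. Its unit is signal: the deposited values, normalised by the authors, are whole reads divided by 1 factor per library, as read from the values; recovered reads were whole, within 0.1 read, for at least 99.9993% of the values of each library. The sources used here do not say how the factors and the repeat annotation were made or how reads that map to several copies were counted, so reads of near-identical copies may be split or misplaced. Named in the submitters' processing notes are featureCounts 1.5.0-p3, StringTie 1.3.3b and HISAT2 2.0.5. Per the labels' protocols libraries could be directional or non-directional, without saying which was which, so a copy and a gene on the other strand cannot be told apart.

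Names were split from the table, and the members and lists were chosen with earlier results of these data known. A copy was placed by overlap of at least 1 base with GENCODE M21 (bedtools 2.31.1), exons before introns. The test was limma 3.58.1 (R 4.3.3) on log2(signal + 1), with 1 mean per group over all 11 groups, a trended prior, two-sided, over copies or names with a mean of at least 5; a count model is an alternative because the unit is signal. Name sums were tested over 1004 names, 915 outside exons and 786 in exons. Alternatives were TMM or median-of-ratios factors, pseudocounts 0.5 and 5, a mean of at least 20 or no minimum, the intron share as a covariate, a replicate block, each library left out, and edgeR 4.0.16 and DESeq2 1.42.0 on recovered reads; sums were also split by exon, and the alternatives run on these split sums and the omission of high ID4 copies were added after seeing the data. The script was tested on simulated data. Named are the 12 highest copies, the 3 highest of each name, and for each comparison the 5 highest and 5 lowest changes among called copies whose groups do not overlap, and genes with 3 or more called copies; some such copies are not reported here. Floors of 3 reads cover counting error only. N2.2 and F1 enter the fit but no comparison here.

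The only paired groups are Balb/c-2 rep2 and Balb/c-2, whose labels give the same tumours; across the tested copies, libraries of 1 tumour deviated together (correlation 0.155 to 0.255) and those of different tumours did not (-0.195 to -0.0563). The labels name sequencing batches of 2021 and 2022 and a resequencing of F2 without assigning libraries. Only the Balb/c-2 rep2 and CBA libraries carry run names, so batch and passage cannot be told apart. CBA against Balb/c-2 rep2 is the only comparison that stays within those 6, of which Balb/c-2 rep2 B has another run name than the rest. Tables and plots used matplotlib 3.10.9, pandas 2.3.3 and numpy 2.4.6 in Python 3.11.15.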

Additional observations from a re-analysis of the deposited data

Results flagged for a closer look

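In 8 of 72 groups of 4 or 5 samples, 1 sample lay far from the others by Dixon's test; chance alone gives about 1 in 20. Tumour B of F2 had the highest ID2 sum, 2900.3, with the others at 2226 to 2365. The ID4 sum of N2.1 was highest in tumour B, 23211, with the others at 21296 to 21823. Among named copies, the N2.1 value stood apart for Nrk in tumour A (1.68, others 0), Rasgrf1 in tumour A (10.1, others 0.752 to 3.07), Gprc5c in tumour B (3.07, others 0) and Slc43a2 in tumour E (0.752, others 0); 0.752 is the value of 1 read there, and with the others at 0 the test flags any value. The intergenic RSINE1 copy on chromosome 2 had 0 in N2.1 B, with 1.51 to 2.08 in the others. In Balb/c-1 the Tinagl1 copy had 2.88 in tumour C and 0 in the others.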

How the results depend on the processing

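The 46 changes chosen by size, of 45 copies, kept their direction under every alternative run; among settings other than an omitted library, 372 tests kept the call and 48 lost it, and among omissions 281 kept it and 68 lost it, with 12 of the 48 under the intron share as a covariate. Counts of called B4, RSINE1 and ID copies moved by over 1.5 times as follows; where a setting is not named for a comparison, its count stayed within that factor. Without a minimum of signal the counts were 2 (F0 against YUMM1.7, 0 as reported), 2 (F2 against F0, 1), 175 (N2.1 against F2, 361), 345 (N2.3 against N2.1, 50), 374 (Balb/c-1 against N2.3, 95), 197 (Balb/c-2 against Balb/c-1, 0), 31 (Balb/c-2 rep2, here rep2, against Balb/c-2, 10) and 84 (CBA against Balb/c-2 rep2, 298). With a mean of at least 20 they were 2 (F2), 229 (N2.1), 31 (N2.3) and 181 (CBA), fewer copies being tested. With the intron share as a covariate they were 0 (F2), 115 (N2.1), 38 (Balb/c-1), 3 (Balb/c-2), 18 (rep2) and 34 (CBA). TMM factors gave 3 (F2), 1 (Balb/c-2) and 5 (rep2), median-of-ratios factors 3, 1 and 4 in the same order, and a pseudocount of 0.5 gave 1 (Balb/c-2). DESeq2 gave 5 (F2), 76 (N2.3), 160 (Balb/c-1), 5 (Balb/c-2) and 195 (CBA), edgeR 5 (rep2) and 154 (CBA). A replicate block gave 2 (F2), 29 (N2.3) and 21 (rep2); in other comparisons nothing in the labels pairs tumours of the same letter. Omitting 1 library gave 0 to 1 (F0), 0 to 6 (F2), 196 to 438 (N2.1), 17 to 88 (N2.3), 34 to 96 (Balb/c-1), 0 to 23 (Balb/c-2), 0 to 7 (rep2) and 96 to 326 (CBA). The 196 came without F2 B and the 23 without Balb/c-2 B.

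Called names of 7, all copies, N2.1 against F2 (2 as reported): 5 lower with TMM or median-of-ratios factors, 4 with a mean of at least 20, 0 with the intron share, 7 outside exons, 1 in exons. For the other comparisons the numbers over all copies were 1 in exons (Balb/c-1, 0 as reported), 2 with the replicate block (rep2, 0), and, for CBA (1), 0 with the intron share, 0 outside exons and 4 in exons, and 0 to 1 over omissions. Outside exons the intron share left 0 of 7 in N2.1, TMM gave 4 in CBA, and omissions gave 0 to 7 in F2 against F0. In exons TMM gave 5 (N2.1) and 2 (Balb/c-1), the intron share 0 in N2.1, Balb/c-1 and CBA, and omissions 0 to 2 in N2.1 and 0 to 1 in Balb/c-1. With TMM factors in exons 7 (N2.1) and 6 (Balb/c-1) of the 7 had an unadjusted limma p under 0.05. Over all 786 names 240 and 252 had one. Signs turned for B4A in N2.1 (-0.066 with TMM and -0.065 with median-of-ratios factors, -0.049 over exon copies), RSINE1 (-0.11, -0.11 and -0.011), B4 and ID outside exons with the intron share (-0.040 and -0.071) and ID4 in CBA outside exons (0.48). The cause was not tested. TMM factors also moved the median change of all tested copies in F0 against YUMM1.7 to 0.015 (0.13 as reported) and in F2 against F0 to -0.019 (-0.12). Depth limits low copies most: 5050 of 124227 were tested.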
